A study of Cavia porcellus with 11 samples.

Results

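A set of 10 genes with known roles in fat cells was followed in guinea pig (Cavia porcellus) cochlear tissue: Adipoq, Plin1, Plin4, Cidec, Lep, Fabp4, Lpl, Cfd, Pparg and Lipe. They were found by gene symbol in the deposited RNA-seq table, which held 9 of the 10 symbols among 21481 genes. Fabp4 was the symbol not found. A row with the symbol LOC100732353 is described in the deposited table as the adipocyte fatty acid-binding protein, and its values are given separately and not counted among the 9. Of the 9 genes, 7 passed the filter on low counts and were tested among 15384 genes in all, while Adipoq and Lep did not pass.

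Fat cells store triglyceride in a large lipid droplet that is coated by perilipins and enlarged by CIDE proteins, and the nuclear receptor PPARG switches on many of these genes as the cells mature. Lipoprotein lipase releases fatty acids from circulating lipoproteins, a fatty acid-binding protein carries them in the cytosol, and hormone-sensitive lipase helps to release them again. Adiponectin and leptin are hormones made mainly by fat cells, so their transcripts are stricter marks of fat than Lpl, Cfd or Pparg, which macrophages, muscle or other cells also express.

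The study compared cochleae without treatment (control, 4 libraries), after cisplatin (4 libraries) and after cisplatin plus STB (combined, 3 libraries). Cisplatin is a platinum drug used against tumours that can damage hearing, and the combined group received it too. STB is not spelled out in the labels, and Schisantherin B, a Schisandra lignan, is named in the title of the series. Strain, age, sex, dose and time after treatment are not stated in the labels, and no group received STB alone. Whether each library is a separate animal is not stated, so p-values measure only the spread between libraries, which may be technical. Library totals ran from 14338894 to 18508296 counts. All 13 cochlear marker genes listed were detected, with a summed level of 30647 to 55757 CPM (counts scaled to a common library size) in a library, 90.8% of it from Coch, the gene of the secreted inner ear protein cochlin. Cisplatin replicate 2 stood apart from the other cisplatin libraries for several genes of lipid metabolism (Pnpla2, Angptl4 and Cebpd). Fold changes of combined over cisplatin for these genes are given with and without it. So are the fold changes of Cfd and Lipe that involve the cisplatin group.

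Hormone genes of fat cells were at or near 0 in every library. Adipoq, which encodes adiponectin (plus strand, 68386918 to 68404758 of its scaffold), had 0 counts in 10 of the 11 libraries and 2 counts in combined replicate 1, or 0.129 CPM with an exact 95% Poisson interval of 0.0157 to 0.467 CPM. Lep, which encodes leptin (minus strand, 40003505 to 40016218 of its scaffold), had 0 counts in 10 libraries and 1 count in combined replicate 3, or 0.0602 CPM (interval 0.00152 to 0.336 CPM). Over all 11 libraries this made 3 counts out of 180026819. A library with 0 counts allows a level of up to 0.159 to 0.207 CPM, taking 3 counts as the limit, and such intervals and limits cover counting error only. No fold change is given for these genes, since they lay at or under that limit in each group. In bulk tissue fewer cells of a type and less RNA per cell cannot be told apart.

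Both genes stand with the rows that were hardly detected at all. Of the 21481 rows, 3087 had no count in any library and 543 had a total of 1 or 2, together 16.9% of the table. Together the 9 genes took 212 to 426 counts in a library.

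Levels of different genes were compared on the authors' deposited FPKM scale, which divides by exonic length. Cfd stood highest at a mean of 3.76 FPKM over the 11 libraries, followed by LOC100732353 at 2.50, Lipe at 2.31, Cidec at 1.55, Pparg at 0.787, Lpl at 0.318, Plin1 at 0.219 and Plin4 at 0.183 FPKM. Adipoq and Lep were listed at 0 FPKM in 10 libraries each. In this order Cfd exceeded LOC100732353 in 8 of 11 libraries, Lipe exceeded Cidec in 10, Cidec exceeded Pparg in 10 and Pparg exceeded Lpl in 9. The ranges over the 11 libraries overlapped for each of these neighbours. Closer still were LOC100732353, which exceeded Lipe in 5 of 11 libraries, Lpl, which exceeded Plin1 in 6, and Plin1, which exceeded Plin4 in 6. Even Cfd was mid-table, with a mean FPKM above that of 52.6% of all rows, whereas Plin4 was above 29.4% and Plin1 above 30.4%.

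Several other members of the same protein families were expressed at far higher levels per length. Cideb, another CIDE protein, was not, with 0 counts in all 11 libraries. Plin2, the widely expressed perilipin of small lipid droplets, was at 16.3 ± 0.499 FPKM in control (SD, n = 4), and its FPKM was 41.0 to 183 times that of Plin1 within a library. Plin3, a perilipin that cycles between cytosol and droplets, was 25 to 83.2 times as high as Plin1 in FPKM, and Plin5, the perilipin of oxidative tissues, 10.2 to 35.3 times. Cidea, the CIDE protein known from mouse brown fat, was at 7.63 ± 0.392 FPKM in control (SD, n = 4) and 3.59 to 8.43 times as high as Cidec. Pnpla2, the lipase that takes the first step of triglyceride breakdown, shares a pathway with Lipe but not a protein family. It was 6.04 to 14.2 times as high as Lipe. The receptors of adiponectin were abundant next to the hormone: Adipor1 was at 46.0 ± 4.93 FPKM and Adipor2 at 22.4 ± 2.72 FPKM in control (SD, n = 4), where Adipoq had no count.

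**Figure D1:**
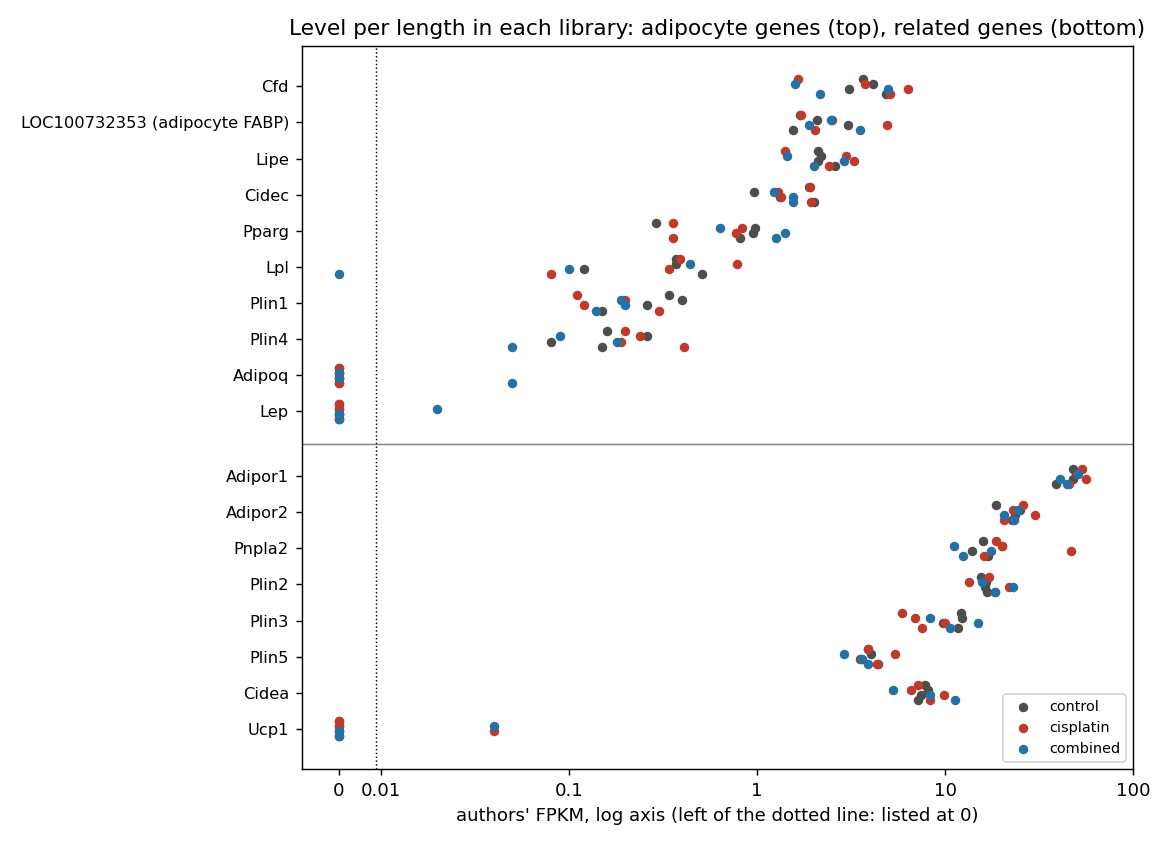
The authors' FPKM of each gene in each of the 11 libraries on a log axis, with values listed at 0 drawn left of the dotted line. Adipocyte genes (top) reach at most 6.33 FPKM, Adipoq and Lep lie at 0 in 10 libraries each, and Plin2, Plin3, Plin5 and Cidea (bottom) lie above Plin1, Plin4 and Cidec.

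Markers of fat cells were also set beside those of other cell types that a dissected cochlea can hold. In the sum of the 4 strictest fat cell markers (Adipoq, Plin1, Cidec and Lep), 72.9% came from Cidec, and the other 3 averaged under 1 CPM. The sum was 3.12 to 4.48 CPM in control libraries, 2.78 to 4.37 CPM in cisplatin libraries and 2.83 to 3.17 CPM in combined libraries, so the groups overlapped. It was close to the sum of 15 bone marrow and blood markers (2.79 to 10.99 CPM over all libraries). Macrophage markers, 12 of 12 detected, summed to 70.2 to 199 CPM, and osteoblast and osteocyte markers, 10 of 10, to 88.5 to 166 CPM. Endothelial markers, 12 of 12, summed to 651 to 923 CPM. Skeletal muscle markers, 14 of 16, summed to 51.3 to 223 CPM, 70.0% of it from Pvalb, a calcium buffer that neurons also express, while Acta1, the actin of muscle fibres, averaged 0.0230 CPM. Among 10 brown fat markers, Ucp1, the heat-producing uncoupling protein, had a count in 2 libraries, and most of the sum of 92.9 to 119.7 CPM came from Ppargc1a, Zic1, Cidea and Prdm16, which other tissues also express. Fat precursor and marrow stroma markers, 10 of 11 found by symbol, summed to 485 to 655 CPM. The largest parts came from Foxc1, Dpp4 and Cxcl12, at means of 182, 133 and 101 CPM over the 11 libraries. In contrast, Pi16 averaged 4.63 CPM and Lepr 0.763 CPM, so the sum is a weak measure of fat precursors. Dlk1, a marker of mouse preadipocytes that was found by symbol, had 0 counts in all 11 libraries.

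**Figure D2:**
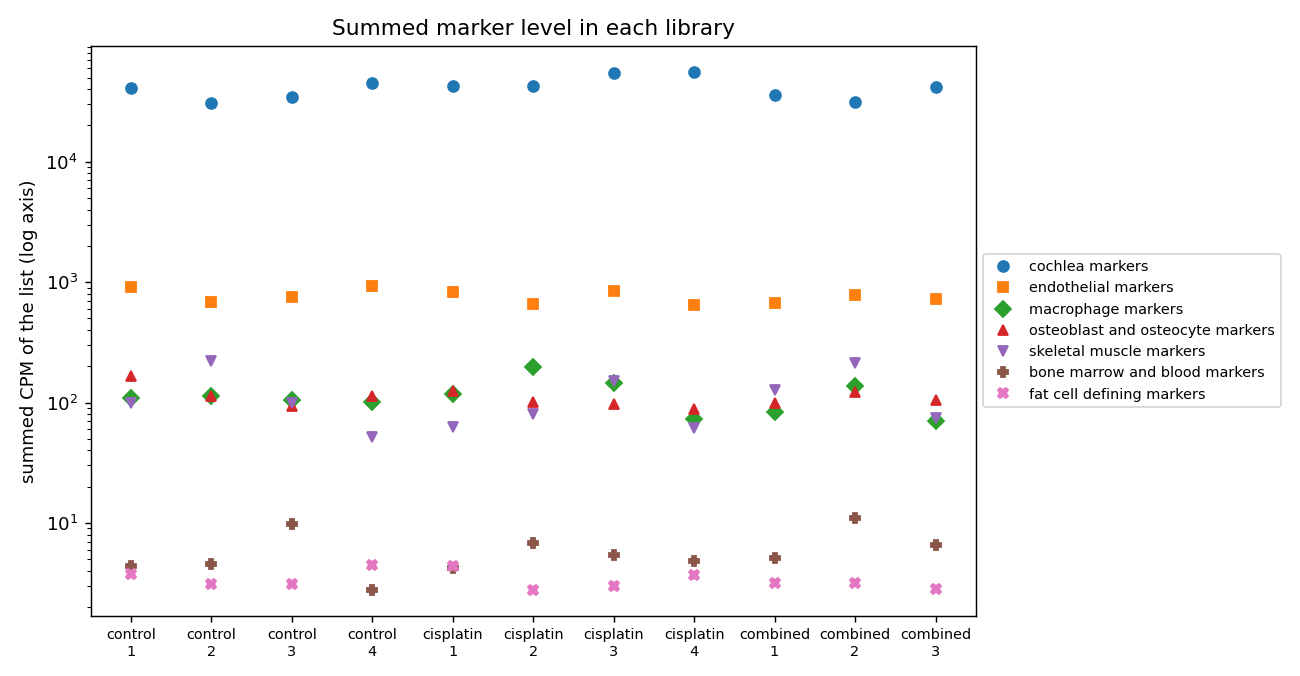
Summed CPM of each cell type list (log axis) in the 11 libraries, with 1 symbol per list. The 4 fat cell markers sum to 2.78 to 4.48 CPM, near the bone marrow and blood markers and below macrophage, bone, muscle and endothelial markers.

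Group differences of the adipocyte genes were tested with edgeR, in 1 quasi-likelihood fit of all 11 libraries with Benjamini-Hochberg adjustment over the 15384 genes tested. None of the 7 members tested passed an adjusted p of 0.05 in any of the 3 comparisons, with edgeR, DESeq2 or limma-voom. For cisplatin over control, edgeR called 0 of 7 (background 0% of all genes), DESeq2 0 (background 0.215%) and limma-voom 0 (background 0.0195%). An unadjusted edgeR p under 0.05 was reached by 0 members there (background 9.71%), and 0 had groups that did not overlap (background 6.06%).

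For combined over cisplatin, edgeR called 0 of 7 members (background 0.0195%), DESeq2 0 (background 0.657%) and limma-voom 0 (background 1.53%). Plin4 was the 1 member under an unadjusted p of 0.05, as 9.03% of all genes were and 4.58% in the lower direction. It was also the 1 member whose groups did not overlap, as for 7.54% of all genes and 3.73% in that direction. For combined over control, each of the 3 tools called 0 of 7 members (background 0% with each). There 0 had an unadjusted p under 0.05 (background 1.07%) and 0 had groups without overlap (background 2.41%). The comparisons share libraries pairwise.

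Directions differed among the members. For cisplatin over control 5 of the 7 had a positive log2 fold change and 2 a negative one, with a median of 0.15, where the median over all genes tested was -0.0056. For combined over cisplatin 1 was positive and 6 were negative, with a median of -0.33 (0.0046 over all genes). For combined over control 1 was positive and 6 were negative, with a median of -0.46 (-0.0032 over all genes). Standard errors were wide at these low counts: their median for cisplatin over control was 0.43 over the members and 0.19 over all genes.

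**Figure D3:**
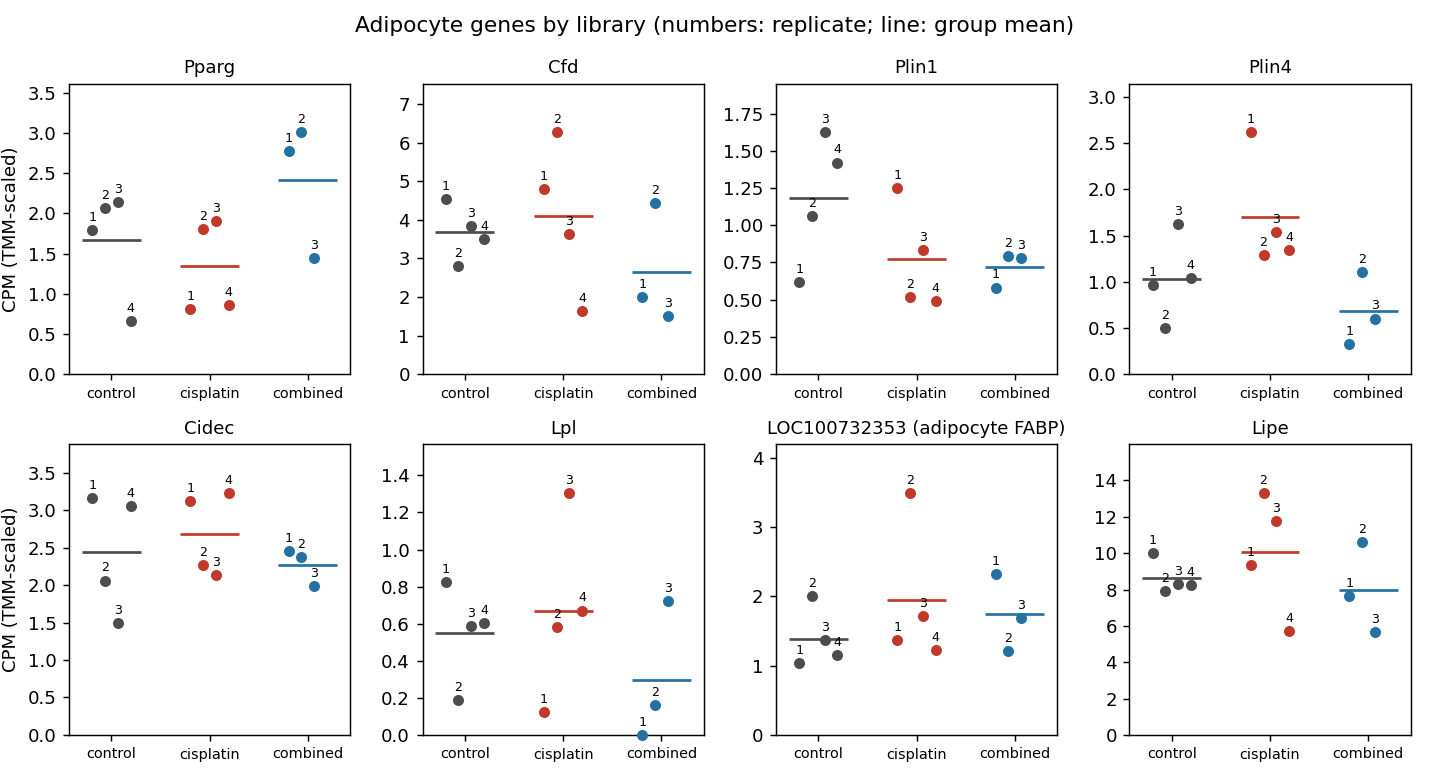
CPM scaled by TMM library sizes of the 7 members tested and of LOC100732353 in each library, with the replicate number beside each point and a line at the group mean. Cisplatin and combined libraries do not overlap for Plin4, at 1.29 to 2.62 and 0.323 to 1.11 CPM, and every other pair of groups overlaps.

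Pparg encodes the nuclear receptor that drives fat cell formation (minus strand, 19292444 to 19436795 of its scaffold). Its level was 1.79, 2.06, 2.15 and 0.656 CPM in control replicates 1 to 4, 0.812, 1.81, 1.90 and 0.854 CPM in the cisplatin libraries, and 2.78, 3.01 and 1.45 CPM in the combined libraries. The groups overlapped, with low values in 1 control and 2 cisplatin libraries and the top 2 values in combined libraries. Over cisplatin, the combined group had a log2 fold change of 0.84 (SE 0.48, 95% interval -0.20 to 1.89, edgeR adjusted p = 0.648), the 1 positive value among the members in that comparison. Over control, the log2 fold change was -0.30 (SE 0.46) in the cisplatin group and 0.54 (SE 0.48) in the combined group. With 1 library left out these 2 values ran from -0.57 to -0.12 and from 0.27 to 0.80.

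Cfd encodes adipsin, the complement factor D protease that fat cells and also macrophages secrete (minus strand, 74506056 to 74508323 of its scaffold). It was at 4.54, 2.81, 3.84 and 3.50 CPM in the control libraries, at 4.81, 6.27, 3.62 and 1.65 CPM with cisplatin, and at 2.00, 4.44 and 1.51 CPM in the combined group. Values of all 3 groups overlapped. The coefficient of variation was 19.6% in control, 47.8% with cisplatin and 59.3% in the combined group, where counting alone would give 13.1%, 12.4% and 14.6%. Differences in spread between the groups were not tested, for Cfd or for Lipe. Cisplatin over control gave a log2 fold change of 0.15 (edgeR SE 0.42, adjusted p = 0.911), and -0.12 without cisplatin replicate 2. Combined over cisplatin gave -0.62 (SE 0.46, 95% interval -1.62 to 0.38, edgeR adjusted p = 0.739), and -0.35 without cisplatin replicate 2. Combined over control gave -0.46 (SE 0.46). With any 1 library left out the last 2 comparisons ran from -1.22 to -0.34 and from -1.06 to -0.18, both nearest 0 without combined replicate 3 and farthest without combined replicate 2.

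Lipe encodes hormone-sensitive lipase (plus strand, 21397144 to 21416993 of its scaffold) and had 94 to 206 counts in a library, the most of the members. Its level was 9.98, 7.93, 8.32 and 8.25 CPM in control, 9.36, 13.3, 11.8 and 5.73 CPM with cisplatin, and 7.62, 10.6 and 5.66 CPM in the combined group. Control libraries lay close together and inside the range of the treated groups. The coefficient of variation was 10.7% in control, with 8.52% from counting alone, and 32.9% with cisplatin, with 7.86% from counting. Its log2 fold change for cisplatin over control was 0.22 (SE 0.27, 95% interval -0.36 to 0.80, edgeR adjusted p = 0.785), and 0.060 without cisplatin replicate 2. The combined group over cisplatin was at -0.33 (SE 0.29, 95% interval -0.96 to 0.30, edgeR adjusted p = 0.785), and -0.18 without that library. Combined over control gave -0.11 (SE 0.29). With any 1 library left out these 3 comparisons ran from 0.060 to 0.42, from -0.60 to -0.14 and from -0.38 to 0.083.

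Cfd and Lipe were also compared across libraries. With each gene's log2 CPM centred on its own mean, the root-mean-square distance between them was 0.32. Lipe ranked 18 of 15383 genes in closeness to Cfd, but Cfd ranked only 1918 in closeness to Lipe. Both were highest in cisplatin replicate 2 and lowest in combined replicate 3. Summed macrophage markers had the same extremes, at 199 CPM in cisplatin replicate 2 and 70.2 CPM in combined replicate 3, with 72.6 CPM in cisplatin replicate 4, where both genes were second lowest. Single markers differed: 4 of 12 (C1qa, C1qb, C1qc and Cd14) were highest in cisplatin replicate 2, and 4 (Csf1r and Cd68 among them) in combined replicate 2. Of the 12, 6 were lowest in cisplatin replicate 4 and 3 in combined replicate 3. Nor was the macrophage list alone in this, since 7 of the 16 lists summed were highest in cisplatin replicate 2, and the lipid uptake list had the same 2 extremes. By group the macrophage sum was 102 to 114 CPM in control, 72.6 to 199 CPM with cisplatin and 70.2 to 137 CPM in the combined group. All 12 markers had counts, with Adgre1 the 1 marker averaging under 1 CPM (0.0465 CPM). Of the macrophage genes DESeq2 called Cd163, a scavenger receptor, for cisplatin over control (background 0.215% of all genes) and for combined over cisplatin (background 0.657%). Cd163 was also called by limma-voom for combined over cisplatin (background 1.53%). In the same order, its edgeR log2 fold changes for cisplatin over control and combined over cisplatin were 1.50 (edgeR SE 0.34, adjusted p = 0.440) and -2.38 (edgeR SE 0.39, adjusted p = 0.156). The part of these markers in the levels of Cfd and Lipe was not tested.

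Among genes outside the set and without a LOC symbol, the nearest to Cfd by this measure were Fuom, Arpc1b, Fbxl12, Slc11a1, Smtn, Ada, Trim47 and Ncf1, at distances of 0.19 to 0.30. Slc11a1 encodes a metal transporter of phagocytes and Ncf1 a cytosolic subunit of the phagocyte NADPH oxidase. Both were singled out from this list by their known function. Fuom, which ranked 1, and Smtn, at a mean of 116 CPM, were not singled out in this way. Whether the list points to any cell type was not tested. Ncf1 ranked 11 in closeness and averaged 1.29 CPM. None of these genes nearest to Cfd is on the macrophage list used here. The nearest to Lipe were Snapc2, Anks6, Acat2, Slc29a1, Cavin1, Pex10, Ethe1 and Mfge8, at 0.14 to 0.17. Cavin1, a coat protein of caveolae that is abundant in fat cells and blood vessels, averaged 250.0 CPM, and Acat2, a cytosolic enzyme of acetyl-CoA metabolism, 35.6 CPM. In the ranking by closeness to Lipe the other members ran from Cfd at 1918 and Cidec at 8804 to Lpl at 14842. These distances describe 11 libraries that share their groups and depth differences.

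**Figure D4:**
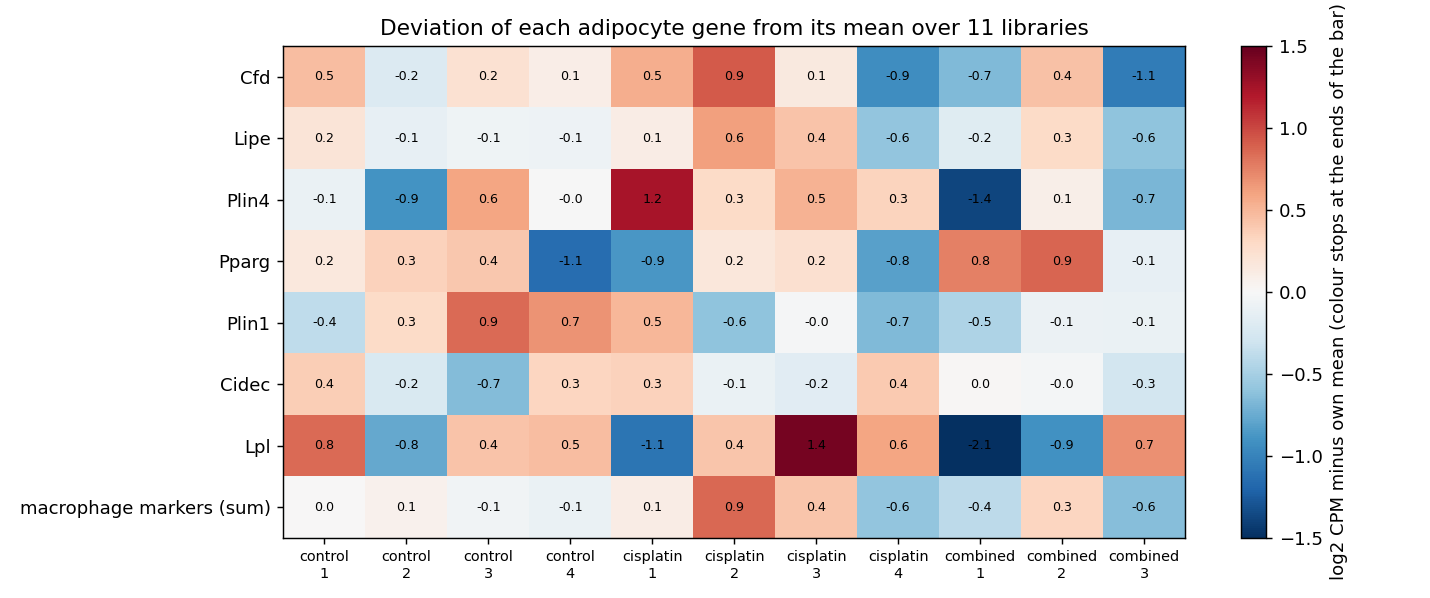
Log2 CPM of each member minus its own mean over the 11 libraries (colour and printed value), with the summed macrophage markers in the bottom row. Cfd, Lipe and the macrophage sum are highest in cisplatin replicate 2 and lowest in combined replicate 3, whereas Cidec, Plin1 and Pparg follow other orders.

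Plin1, the perilipin that guards the large droplet of white fat cells (minus strand, 21590894 to 21604420 of its scaffold), was at 0.620, 1.06, 1.63 and 1.42 CPM in control, 1.25, 0.517, 0.831 and 0.488 CPM with cisplatin, and 0.582, 0.793 and 0.783 CPM in the combined group. It had 8 to 26 counts in a library, and the groups overlapped, with the top 2 values in control. For cisplatin over control the log2 fold change was -0.61 (SE 0.43, 95% interval -1.56 to 0.33, edgeR adjusted p = 0.648). Combined over control gave -0.71 (edgeR SE 0.47, adjusted p = 1.00), and combined over cisplatin -0.098 (SE 0.48). With 1 library left out, the values for cisplatin over control ran from -0.93 to -0.43. Plin1 overlaps Pex11a, a peroxisome gene on the same strand, by 1318 bases, so its counts depend on how reads in that stretch were assigned.

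Plin4, a perilipin that muscle also expresses (plus strand, 72486448 to 72497132 of its scaffold), was the member with the smallest p. It was at 0.964, 0.500, 1.63 and 1.04 CPM in control, 2.62, 1.29, 1.54 and 1.34 CPM with cisplatin, and 0.323, 1.11 and 0.602 CPM in the combined group. All 4 cisplatin libraries were above all 3 combined libraries, while control overlapped with both. The log2 fold change of combined over cisplatin was -1.30 (SE 0.52, 95% interval -2.44 to -0.17), with an unadjusted p of 0.0279 and an edgeR adjusted p of 0.505. It was -0.98 without combined replicate 1 (adjusted p = 0.960) and -1.86 without combined replicate 2 (adjusted p = 0.665), and over all edgeR, DESeq2 and limma-voom alternatives the adjusted p was 0.0745 to 0.960. Cisplatin over control gave 0.72 (edgeR SE 0.47, adjusted p = 0.628) and combined over control -0.58 (SE 0.52), with ranges of 0.44 to 1.02 and -1.14 to -0.26 when 1 library was left out. Summed skeletal muscle markers were 61.8 to 152 CPM with cisplatin and 74.6 to 211 CPM in the combined group, ranges that overlap. Over all libraries 70.0% of that sum came from Pvalb, which neurons also express, so it is a weak measure of muscle. The part of muscle in the Plin4 values was not tested. Plin4 had 5 to 42 counts in a library and overlaps Hdgfl2 on the opposite strand by 14 bases.

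Cidec, the CIDE protein that fuses droplets in white fat cells (minus strand, 74707044 to 74725139 of its scaffold), was at 3.17, 2.06, 1.50 and 3.06 CPM in control, 3.12, 2.26, 2.14 and 3.23 CPM with cisplatin, and 2.46, 2.38 and 1.99 CPM in the combined group. The groups overlapped throughout. The fitted log2 fold change for cisplatin over control was 0.14 (SE 0.31, 95% interval -0.53 to 0.80, edgeR adjusted p = 0.890), and -0.039 without control replicate 3. Combined over cisplatin gave -0.24 (edgeR SE 0.33, adjusted p = 0.875), with a range of -0.35 to -0.15 when 1 library was left out, and combined over control -0.11 (SE 0.33).

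Lpl, lipoprotein lipase (plus strand, 33527805 to 33544493 of its scaffold), was at the limit of detection in several libraries. It had 12, 3, 9 and 11 counts in control, 2, 9, 22 and 11 counts with cisplatin, and 0, 3 and 12 counts in the combined group, or 0 to 1.31 CPM. Each group held at least 1 library at or under 3 counts. Combined over cisplatin gave a log2 fold change of -1.17 (SE 0.93, 95% interval -3.19 to 0.84, edgeR adjusted p = 0.762), and -2.88 without combined replicate 3. The cisplatin group over control was at 0.29 (edgeR SE 0.81, adjusted p = 0.912), and -0.25 without cisplatin replicate 3. Combined over control gave -0.88 (SE 0.94), and -2.59 without combined replicate 3.

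The row LOC100732353 (minus strand, 56467700 to 56472769 of its scaffold) was at 1.03, 2.00, 1.37 and 1.15 CPM in control, 1.37, 3.49, 1.72 and 1.22 CPM with cisplatin, and 2.33, 1.22 and 1.69 CPM in the combined group. Its highest value was in cisplatin replicate 2, as for Cfd and Lipe, and the groups overlapped. Cisplatin over control gave a log2 fold change of 0.49 (SE 0.41, 95% interval -0.40 to 1.38, edgeR adjusted p = 0.705), and 0.060 without cisplatin replicate 2. Combined over cisplatin gave -0.16 (edgeR SE 0.44, adjusted p = 0.939), and 0.26 without the same library.

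**Figure D5:**
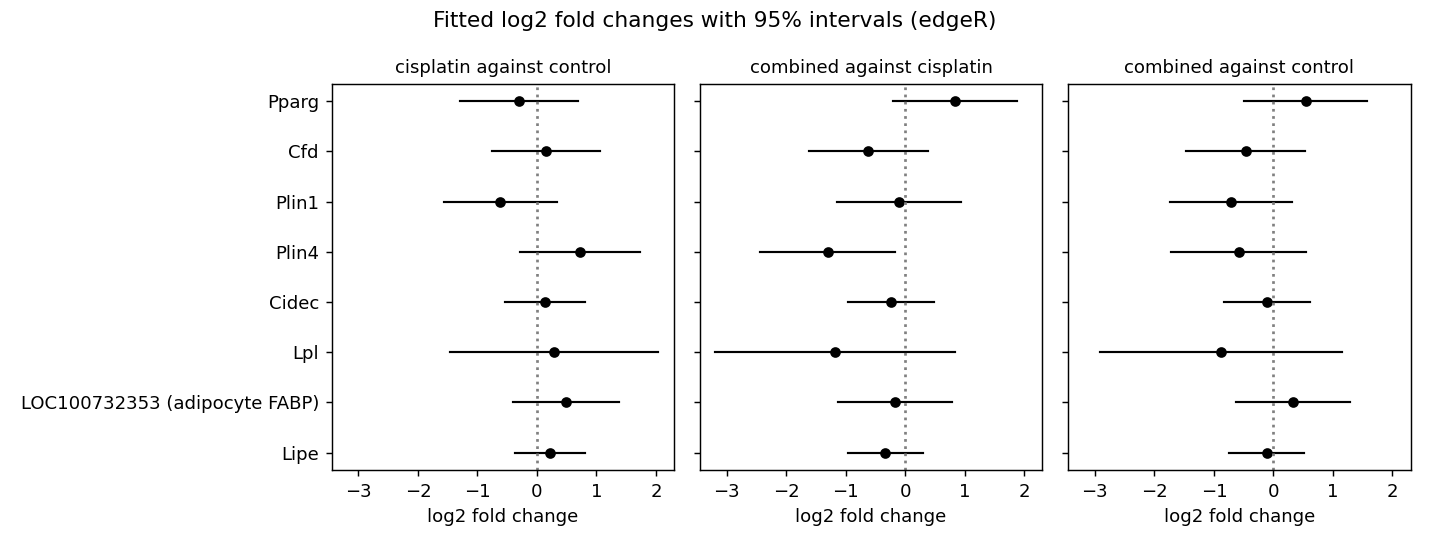
Log2 fold changes from edgeR (points) with 95% intervals (lines) for the 7 members tested and LOC100732353 in the 3 comparisons. Each interval includes 0 except that of Plin4 in the combined group against cisplatin, -2.44 to -0.17.

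Other genes of fat metabolism were counted in 7 lists, and edgeR called none of them at an adjusted p of 0.05 in any comparison. Srebf1 stands in both the synthesis list and the transcription factor list, so the counts of these lists are not independent. The counts come from fits that include cisplatin replicate 2, where Srebf1, Klf4 and Cebpd were highest. For cisplatin over control, where 9.71% of all genes had an unadjusted p under 0.05, that threshold was reached by 2 of 12 tested genes of fat storage (both lower), 2 of 9 of lipolysis (1 higher, 1 lower), 4 of 13 of lipid uptake (3 higher, 1 lower) and 1 of 13 of lipid and glucose synthesis (higher). The same threshold was passed by 3 of 14 adipogenic transcription factors (2 higher, 1 lower), 1 of 7 other secreted proteins (higher) and 0 of 4 receptors of adiponectin and leptin. DESeq2 and limma-voom called 0 genes of these lists there. For combined over cisplatin, where 9.03% of all genes passed and 4.58% in the lower direction, the counts were 3 of 12 for fat storage (2 higher, 1 lower), 2 of 9 for lipolysis, 3 of 13 for lipid uptake, 3 of 13 for synthesis, 6 of 14 for transcription factors and 2 of 7 for secreted proteins, all lower outside fat storage, and 0 of 4 for the receptors. In that comparison DESeq2 called Klf15 and Sfrp5 (background 0.657% of all genes), and limma-voom called Klf15, Sfrp5, Zbtb16 and Insr (background 1.53%), each lower in the combined group. For combined over control 2 transcription factors (Klf15 and Zbtb16) and 1 secreted protein (Sfrp5) had an unadjusted p under 0.05, all lower (background 1.07%), and neither DESeq2 nor limma-voom made a call.

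Plin3, the perilipin of cytosol and droplets, averaged 16.9 ± 1.89 CPM in the control libraries (SD, n = 4), 11.7 ± 2.76 CPM with cisplatin (n = 4) and 16.4 ± 4.43 CPM in the combined group (n = 3). Its log2 fold changes were -0.54 (edgeR SE 0.20, adjusted p = 0.467) for cisplatin over control and 0.49 (edgeR SE 0.22, adjusted p = 0.540) for combined over cisplatin, the latter 0.26 without combined replicate 2. Gpat3, an enzyme of triglyceride synthesis, had values of -0.89 (SE 0.36) and 0.88 (SE 0.39) on the log2 scale in the same comparisons, and -0.54 without control replicate 2 and 0.50 without combined replicate 2. Plin2 and Plin5 were at 0.19 (SE 0.15) and 0.18 (SE 0.18) on that scale for cisplatin over control.

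Pnpla2, Angptl4 and Cebpd were each highest in cisplatin replicate 2. Pnpla2 was at 36.8, 112, 47.2 and 44.9 CPM in cisplatin replicates 1 to 4, beside 31.1 to 44.7 CPM in control and 25.7 to 38.0 CPM in the combined group. Its log2 fold change for combined over cisplatin was -0.97 (edgeR SE 0.34, adjusted p = 0.439), and -0.50 without cisplatin replicate 2. Angptl4, a secreted inhibitor of lipoprotein lipase, was at 13.1, 83.6, 19.5 and 10.6 CPM in the cisplatin libraries, 8.47 to 13.5 CPM in control and 5.17 to 7.82 CPM in the combined group. Its value for combined over cisplatin was -2.26 (edgeR SE 0.68, adjusted p = 0.397), and -1.14 without that library. Cebpd, a transcription factor of early fat cell formation, was at 10.7, 101, 14.2 and 12.1 CPM in the cisplatin libraries, again highest in replicate 2. Combined over cisplatin, it was at -2.31 (SE 0.80) on the log2 scale, and -0.84 without that library. For cisplatin over control, Angptl4 was at 1.53 (SE 0.60) and Cebpd at 1.89 (SE 0.70) on that scale. Both are among the genes counted above at an unadjusted p under 0.05, in fits that include cisplatin replicate 2.

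Acsl1, an enzyme that activates long fatty acids, had log2 fold changes of 0.50 (SE 0.19) for cisplatin over control and -0.44 (SE 0.20) for combined over cisplatin, the latter -0.67 to -0.24 with 1 library left out. Cav1, the main protein of caveolae, had 0.38 (SE 0.12) and -0.36 (SE 0.13) in the same order, and Slc27a1, a fatty acid transport protein, -0.42 (SE 0.16) for cisplatin over control. Adrb1, a beta-adrenergic receptor that triggers lipolysis, was at 0.375 to 1.64 CPM in control and 0.244 to 0.475 CPM with cisplatin, with a log2 fold change of -1.53 (edgeR SE 0.54, adjusted p = 0.458). Adrb3, the receptor typical of mouse fat cells, had 0 counts in all 11 libraries.

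Klf15, a transcription factor that promotes fat cell formation and responds to glucocorticoids, was at 29.2 to 42.2 CPM in control, 41.8 to 60.7 CPM with cisplatin and 23.5 to 33.8 CPM in the combined group. Cisplatin and combined libraries did not overlap, and the log2 fold change between them was -0.92 (edgeR SE 0.19, adjusted p = 0.221), a gene that DESeq2 and limma-voom called. Cisplatin over control gave 0.49 (SE 0.17) for Klf15 and -0.28 (SE 0.10) for Rxra, the partner receptor of PPARG. Zbtb16 was at 95.4 to 157 CPM in control, 75.7 to 171 CPM with cisplatin and 49.2 to 120.0 CPM in the combined group. Its log2 fold change for combined over control was -0.79 (SE 0.35), and -1.34 to -0.57 with 1 library left out. Sfrp5, a secreted inhibitor of WNT signalling known from mouse fat, was at 2.54 to 6.54 CPM in control, 5.06 to 14.7 CPM with cisplatin and 1.16 to 2.77 CPM in the combined group. Combined over cisplatin gave -2.62 (edgeR SE 0.48, adjusted p = 0.191) for it and cisplatin over control 1.40 (edgeR SE 0.41, adjusted p = 0.440). Agt, the angiotensin precursor, was at -1.64 (SE 0.69) on the log2 scale for combined over cisplatin. Insr, the insulin receptor, had log2 fold changes of 0.34 (SE 0.13) and -0.43 (SE 0.14) in the first and second comparison, and Slc2a4, the insulin-responsive glucose transporter, of -0.87 (SE 0.33) in the second.

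Receptors for the hormones of fat cells had no unadjusted p under 0.05 in any comparison. Adipor1 averaged 97.8 ± 10.5 CPM in the control libraries (SD, n = 4), 114 ± 12.5 CPM with cisplatin (n = 4) and 95.9 ± 13.8 CPM in the combined group (n = 3). Adipor2 was at 99.6 ± 10.6, 116 ± 21.7 and 100.3 ± 11.5 CPM in the same groups. Lepr, the leptin receptor, was low in each library at 0.388 to 1.66 CPM.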

How the data were processed

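Guinea pig cochlear RNA was enriched for mRNA on oligo(dT) beads or by ribosomal RNA removal and sequenced from strand-keeping libraries, per the labels' protocols; which enrichment a library received is not stated. Cutadapt 1.9.1, HISAT2 2.2.1 and HTSeq 0.6.1 were used, per the submitters' processing notes. The deposited table gives raw counts and FPKM per gene and library, with exonic length and position, per the file headers. Its genome build and the strand setting of counting are not given in the sources used here. All 10 rows described had identical start and end positions in RefSeq's annotation of mCavPor4.1.

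Differences were fitted to the counts in R 4.3.3 with edgeR 4.0.16: filterByExpr by group (15384 genes kept, 6097 removed), TMM factors and 1 robust quasi-likelihood fit with groups as coefficients. CPM was scaled by TMM library sizes. Alternatives were DESeq2 1.42.0, limma-voom with quality weights (limma 3.58.1), other scaling and filters, fits of only the groups compared, a replicate block and leaving out each library. Simulated counts were also put through the test. Their outcome is not given here, so they do not show how well changes in members with low counts would be found. The members and lists were chosen with earlier results of these data known. All members were named, and per metabolic list and comparison up to 2 genes with the smallest p among those under 0.05. Likeness was planned against Adipoq, which did not pass the filter, so Lipe and Cfd were used instead, chosen after their values were seen. Cd163 was likewise named after its values were seen, as were Adipor1, Adipor2, Lepr, Plin2 and Plin5.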

Additional observations from a re-analysis of the deposited data

How the results depend on the processing

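None of the 7 members was called under any alternative run: other scaling, no low-count filter, DESeq2, limma-voom, only the groups compared, a replicate block, or any 1 library left out. Of 376 refitted fold changes of these members, which do not include LOC100732353, 364 kept their direction and 12 turned. With limma-voom the log2 fold change was -0.038 for Cfd (cisplatin over control), 0.25 for Cidec (combined over control) and 0.27 for LOC100732353 (combined over cisplatin). With the replicate block it was -0.020 for Cfd (cisplatin over control) and 0.058 for Cidec (combined over control). With 1 library left out, the following full ranges held values on both sides of 0. For cisplatin over control they were -0.12 to 0.42 for Cfd, -0.039 to 0.29 for Cidec and -0.25 to 0.64 for Lpl. For combined over cisplatin they were -0.27 to 0.22 for Plin1 and -0.43 to 0.26 for LOC100732353. For combined over control they were -0.28 to 0.033 for Cidec and -0.38 to 0.083 for Lipe. Lpl did not pass the filter, and was not tested, in fits of only the groups compared for cisplatin over control and combined over control.

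Over all genes edgeR called 0 for cisplatin over control, against 1 with no filter, 33 with DESeq2, 3 with limma-voom and 0 to 7 with 1 library left out. For combined over cisplatin it called 3, against 101 with DESeq2, 235 with limma-voom, 0 with only the groups compared, 0 with the replicate block and 0 to 23 with 1 library left out, the most without combined replicate 3 and 15 without cisplatin replicate 1. For combined over control it called 0, and 0 to 2 with 1 library left out. The cause of the differences in calls was not tested. Same-numbered libraries of different groups had correlations of their deviations from group means of -0.31 to 0.36. Libraries with different numbers had -0.48 to 0.55. Whether the numbers mark a pairing is not stated in the labels, and these correlations cannot decide it. Counts of 0 to 22 for Lpl, 8 to 26 for Plin1 and 5 to 42 for Plin4 in a library limit the precision for these members.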

Other observations

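Dgat2, an enzyme of the last step of triglyceride synthesis, varied widely between libraries of a group and was chosen here after its values were seen. It was at 43.4, 113, 130.2 and 4.15 CPM in control replicates 1 to 4, at 46.8, 155, 74.3 and 55.2 CPM in the cisplatin libraries and at 86.4, 69.6 and 126 CPM in the combined libraries. Control replicate 4 held 76 counts of it, the lowest of the 11 libraries. Cisplatin over control gave 0.19 (edgeR SE 0.80, adjusted p = 0.950) on the log2 scale. Dgat1, which catalyses the same reaction, had 696 to 1082 counts in a library.

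Cidea was higher than Cidec in FPKM in 11 of 11 libraries. Its level was 17.0 ± 0.949 CPM in control (SD, n = 4), 18.6 ± 3.48 with cisplatin (n = 4) and 18.2 ± 6.49 in the combined group (n = 3). Zic1, a transcription factor counted among mouse brown fat markers and also expressed in neural tissue, was at 25.2 ± 3.55, 23.7 ± 3.26 and 16.4 ± 3.21 CPM in the same groups. Combined over control gave -0.63 (edgeR SE 0.18, adjusted p = 1.00) on the log2 scale for Zic1.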
